A study of Homo sapiens with 2 samples.

Results

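The BCL2 family genes BID, BAX, BAK1, BAD, BCL2, BCL2L1, BCL2L11, MCL1, BBC3 and PMAIP1 were examined in 2 expression arrays of the human hepatocellular carcinoma (HCC) cell line PLC8024. One array came from CD133- cells given miR-130b, a microRNA, by lentiviral transduction, which 1 label of that sample calls a transfection. The other came from CD133- cells transduced with an empty lentiviral vector. Both cultures derive from the fraction of PLC8024 cells sorted by flow cytometry for lack of the surface marker CD133, so the sort and the exposure to lentivirus are shared by both. A gene's members were all probe sets, that is, groups of array probes summarised to 1 value, that the platform annotation assigns to that gene alone. By this rule 9 of the 10 genes were represented, by 32 probe sets, out of 19775 genes on the array. BBC3, which encodes the BH3-only protein PUMA, had no such probe set and was not analysed here.

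BCL2 family proteins decide whether the outer mitochondrial membrane is permeabilised, the step that releases cytochrome c and starts the caspase cascade. BH3-only proteins sense damage or receptor signals, BAX and BAK1 form the pores, and BCL2, BCL-xL and MCL1 hold both in check by binding them. BID joins the death receptor pathway to the mitochondria: caspase-8 cuts it, and the truncated fragment activates BAX and BAK1. In mice, hepatocytes depend on Bid for the mitochondrial arm of Fas-induced death.

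The agent delivered was miR-130b, and its mature arms are shown because they are what differs by design between the cultures. The 3p arm lies at chr22:21653354-21653375 and the 5p arm at chr22:21653316-21653336, both on the plus strand of GRCh38.p14 in RefSeq. The sequences are written 5′ to 3′, with the seed, bases 2 to 8, in capitals. The labels do not say which arm accumulated.
hsa-miR-130b-3p: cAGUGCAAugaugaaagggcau
hsa-miR-130b-5p: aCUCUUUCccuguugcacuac
In the RefSeq table used, 5 other mature microRNAs carry the seed of the 3p arm: hsa-miR-301a-3p, hsa-miR-301b-3p, hsa-miR-454-3p, hsa-miR-3666 and hsa-miR-4295. That table may not hold every mature microRNA, so the list is not taken as complete. The absence of hsa-miR-130a-3p from it is no evidence that this microRNA lacks the seed. No other in the table carries the seed of the 5p arm. A transcript site for the 3p seed would read UUGCACU. Transcripts of the BCL2 family were not searched for it here, and the level of miR-130b itself was not analysed here.

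All values are log2 expression values deposited by the authors, and every difference is miR-130b minus empty vector on that scale. There was 1 array per condition, so no difference was tested and no p-value exists. The only error available is technical. Where several measured probe sets read 1 gene, as they did for 6047 genes, their differences scattered with a pooled SD of 0.20. This technical SD contains no variation between cultures and does not measure scatter between arrays. A difference above or within it therefore does not show whether a gene changed. A probe set counted as measured when its brighter array reached 4.88, the midpoint (median) of the non-control values over both arrays. A difference of 1.5-fold, 0.58 on the log2 scale, served as a rule of size. Probes differ in brightness for reasons other than abundance, so no gene was ranked above another by its level. In bulk RNA, a lower value may reflect fewer cells with a transcript or less of it per cell, and these cannot be told apart.

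The authors' processing gives the arrays a shared distribution, so their column medians, 4.88 for both, say nothing about the cultures. The median difference over 13260 measured genes was 0.03. Of 12 hepatocyte and HCC markers, 11 were measured, 7 lower and 4 higher with miR-130b, with a median of -0.27. At least 1.5-fold lower were 3 of them, beside 2.68% of all measured genes, and none was higher by that much. Those 3 were TTR with -3.34, KRT8 with -1.05 and ALB with -1.03, and AFP had -0.57. The 4 higher ones were APOH with 0.32, SERPINA1 with 0.08, APOB with 0.04 and FGB with 0.01. The summed level, to which the brightest probe sets contribute most, was 16.00 with miR-130b, against 16.18 with empty vector. TTR, KRT8, ALB and AFP thus stood lower in the same array as BID, and their part in the BID difference was not tested. Of the leukocyte markers, PTPRC, CD3E and CD14 lay below the floor in both arrays, while LYZ was at 9.46 with miR-130b, against 9.77 with empty vector, and its other probe set had a difference of -1.72. The endothelial genes VWF and CDH5 also lay below the floor, and PECAM1 and TEK above it. The 4 measured fibroblast markers of 5 spanned 5.07 to 7.12 with miR-130b, against 5.15 to 7.20 with empty vector, by their brightest probe sets. The 4 probe sets of COL1A1 disagreed, with differences from -1.68 to 0.38. PROM1, which encodes the CD133 the cells were sorted to lack, was at 6.07 with miR-130b, against 9.19 with empty vector, both above the floor. The 3′ to 5′ ratio of ACTB, often read as a sign of RNA quality, was 2.41 with miR-130b, against 1.95 with empty vector. For GAPDH it was 1.52 with miR-130b, against 1.37 with empty vector. The part of RNA quality in the differences below was not tested.

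By the brightest probe set of each gene, BID alone of the 9 genes was at least 1.5-fold lower with miR-130b, and none was at least 1.5-fold higher. Over all measured genes, 2.68% were at least 1.5-fold lower and 0.294% at least 1.5-fold higher. BID was also at least 2-fold lower, as were 1.52% of all measured genes, while 0% were at least 2-fold higher. The other 8 genes lay between -0.22 for BCL2L1 and 0.33 for PMAIP1. The median over the 9 genes was 0.05, beside 0.03 over all measured genes. At the level of probe sets, 27 of 32 were measured, of which 5 were at least 1.5-fold lower and 1 at least 1.5-fold higher. Among all measured probe sets with 1 gene symbol the shares were 2.83% lower and 0.33% higher. The 5 lower probe sets belong to only 2 genes, BID and BCL2L11, and probe sets of 1 gene share their transcripts, so they are not independent. Among them, 204493_at of BID counted as measured only through the empty vector array, where it is higher.

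**Figure D1:**
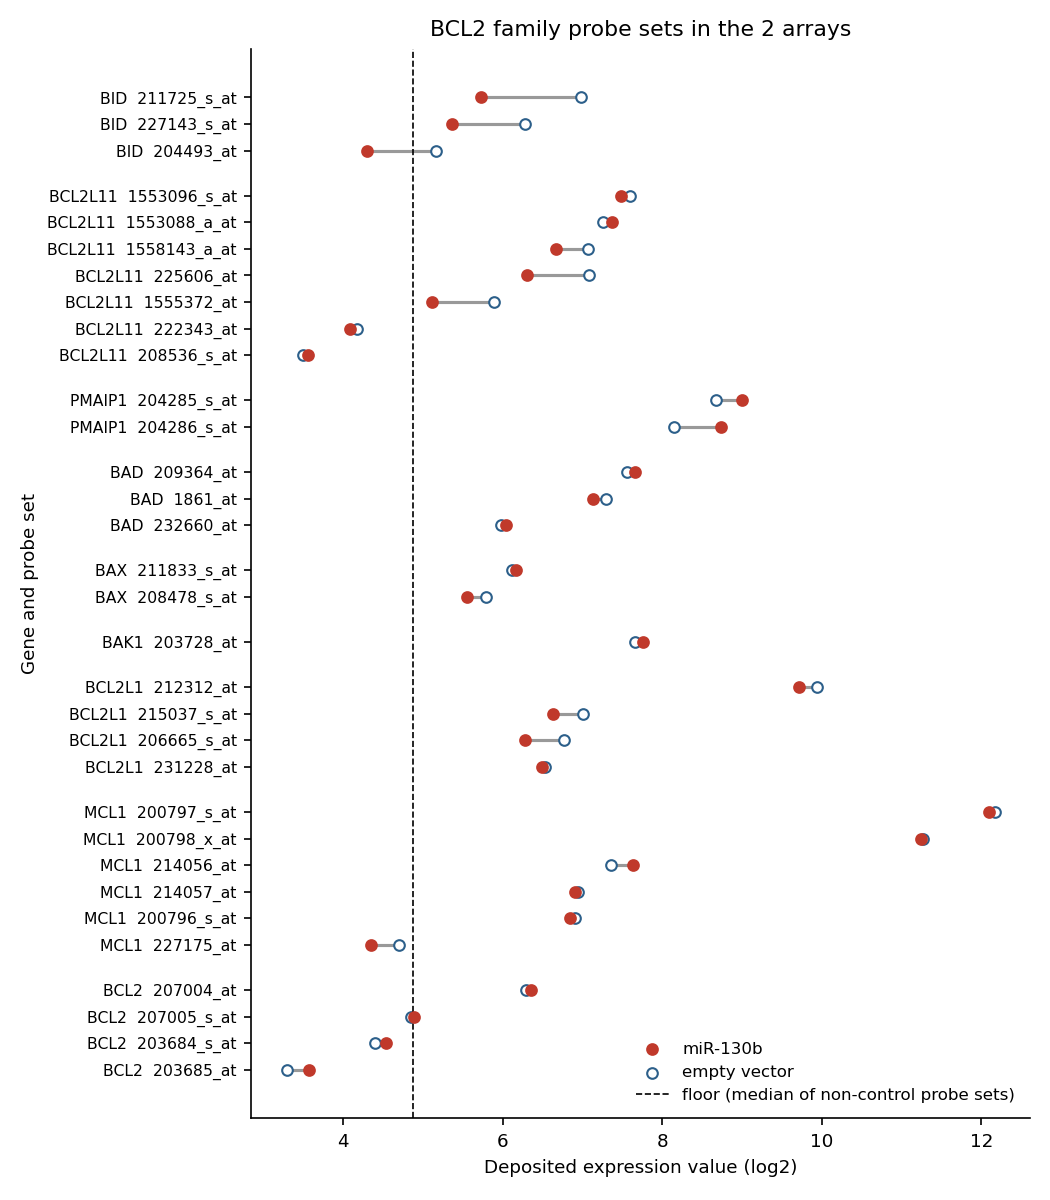
Deposited log2 values (horizontal axis) of the 32 probe sets of 9 BCL2 family genes, with miR-130b as filled and empty vector as open points. The dashed line is the floor at 4.88; all 3 BID probe sets lie lower with miR-130b, whereas both PMAIP1 probe sets lie higher.

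BID stood lower in each of its 3 probe sets. The brightest, 211725_s_at, was at 5.72 with miR-130b, against 6.98 with empty vector, a difference of -1.26 or 2.40-fold. Probe set 227143_s_at was at 5.37 with miR-130b, against 6.28 with empty vector, a difference of -0.91. Probe set 204493_at was at 4.30 with miR-130b, against 5.16 with empty vector, a difference of -0.86. It counted as measured only through the empty vector array, so its direction gives no separate support for a low BID. The miR-130b array is thus the low one in all 3, by amounts several times the technical SD of 0.20. That SD is pooled over genes of all levels, whereas the BID probe sets are dim. It measures disagreement between probe sets of 1 gene, not scatter between arrays. The mean over the 3 probe sets, 204493_at included, was -1.01 ± 0.22 (SD between 3 probe sets), which is 2.01-fold.

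Few genes stood as low as BID. By its brightest probe set, 140 of 13260 measured genes, or 1.06% with BID included, had a difference at or below -1.26. Dim probe sets scatter more between the arrays, so BID was also placed among the 1326 genes in its decile of mean level. There, 95% of the differences lay between -0.82 and 0.41, and 21 genes, BID included, were as low as BID. At least 3 probe sets were measured for 2511 genes. In 13 of these, or 0.518%, every measured probe set was at least 1.5-fold lower, and BID is among them. The dimmest BID probe set, 204493_at, lay below the floor in the miR-130b array, where residual background compresses a fold. It counted as measured only through the empty vector array, where it is higher. BID's place among the 13 genes rests on that probe set, so this count gives no separate support for a low BID. BID was also close to the limit of a stricter floor: at the 75th percentile of all values, 6.98, its brightest probe set fell just short and the gene was no longer counted.

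BCL2L11, which encodes the BH3-only activator BIM, gave probe sets that disagreed. It has several splice forms, and 5 of its 7 probe sets were measured. The measured ones split into 2 that are at least 1.5-fold lower and 3 that are not. Probe set 225606_at was at 6.30 with miR-130b, against 7.09 with empty vector, a difference of -0.79. Probe set 1555372_at was at 5.11 with miR-130b, against 5.89 with empty vector, a difference of -0.77. Probe set 1558143_a_at was at 6.66 with miR-130b, against 7.07 with empty vector, a difference of -0.41. These 3 are lower in the miR-130b array by more than the technical SD. The brightest probe set, 1553096_s_at, was at 7.49 with miR-130b, against 7.59 with empty vector, and 1553088_a_at was at 7.37 with miR-130b, against 7.25 with empty vector. These last differ by -0.11 and 0.12, within the technical SD. The remaining probe sets, 222343_at and 208536_s_at, lay below the floor and differed by -0.09 and 0.06. The gene's mean over 5 measured probe sets was -0.39 ± 0.40 (SD between 5 probe sets). Its differences span 0.91, a width reached by 20, BCL2L11 included, of the 358 genes that had 5 or more measured probe sets.

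PMAIP1, which encodes NOXA, a BH3-only protein that binds MCL1 and is induced by p53 and by stress, was the highest of the family. Probe set 204285_s_at was at 9.00 with miR-130b, against 8.67 with empty vector, a difference of 0.33. Probe set 204286_s_at was at 8.73 with miR-130b, against 8.15 with empty vector, a difference of 0.59 that just passes 1.5-fold. Both probe sets were higher with miR-130b by more than the technical SD, but they share their transcripts and are not independent. By the brighter one, 601 of 13260 genes, or 4.53%, were as high as PMAIP1. In its decile of mean level, 51 of 1326 genes were as high.

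BAD, a BH3-only protein whose binding to BCL2 and BCL-xL is blocked by phosphorylation, differed little. Its brightest probe set, 209364_at, was at 7.66 with miR-130b, against 7.56 with empty vector. Probe set 1861_at was at 7.13 with miR-130b, against 7.30 with empty vector, and 232660_at was at 6.04 with miR-130b, against 5.98 with empty vector. The differences, 0.10, -0.16 and 0.05, had mixed signs and lay within the technical SD.

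**Figure D2:**
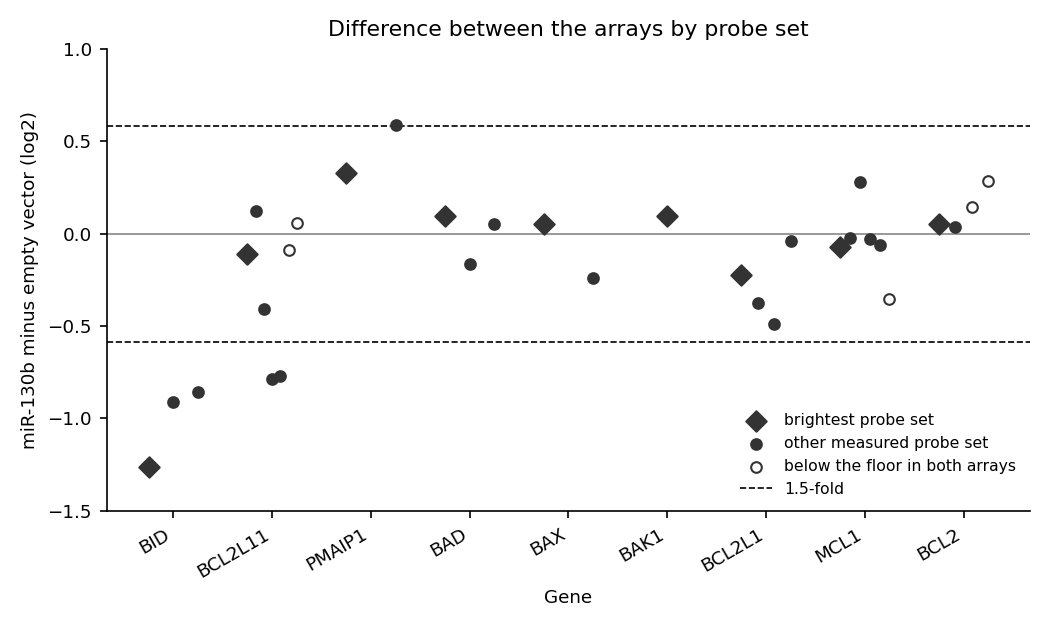
Difference miR-130b minus empty vector (log2, vertical axis) for each probe set, grouped by gene; diamonds are the brightest probe set of a gene, filled circles other measured ones and open circles those below the floor. Dashed lines mark 1.5-fold; BID lies wholly below the lower line, BCL2L11 straddles it with 2 of 5 measured probe sets below, and the other genes lie between the lines apart from 1 PMAIP1 probe set at 0.59.

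The pore formers stayed near the bulk of genes. BAX, which moves from the cytosol to mitochondria on activation, was at 6.17 with miR-130b, against 6.12 with empty vector, in 211833_s_at. In probe set 208478_s_at it was at 5.56 with miR-130b, against 5.80 with empty vector, so the differences of 0.05 and -0.24 have opposite signs. BAK1, which resides on the mitochondrial membrane, has 1 probe set, 203728_at, at 7.76 with miR-130b, against 7.66 with empty vector. That difference of 0.10 is within the technical SD.

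Among the anti-apoptotic genes, BCL2L1 was the one with all measured probe sets lower. It encodes BCL-xL, which protects hepatocytes in mice. Its brightest probe set, 212312_at, was at 9.72 with miR-130b, against 9.94 with empty vector, a difference of -0.22. Probe set 215037_s_at was at 6.64 with miR-130b, against 7.01 with empty vector, and 206665_s_at was at 6.28 with miR-130b, against 6.77 with empty vector. These differ by -0.38 and -0.49, short of 1.5-fold, while 231228_at, at 6.50 with miR-130b and 6.53 with empty vector, differed by -0.04. The mean over the 4 probe sets was -0.28 ± 0.20 (SD between 4 probe sets). By the brightest probe set 10.5% of measured genes were as low.

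MCL1, a short-lived protein that liver cells need for survival in mice, hardly differed. Its brightest probe set, 200797_s_at, was at 12.10 with miR-130b, against 12.17 with empty vector, a difference of -0.07. In 200798_x_at it was at 11.25 with miR-130b, against 11.27 with empty vector. Of the 5 measured probe sets, 214056_at alone exceeded the technical SD, at 7.64 with miR-130b, against 7.36 with empty vector, a difference of 0.28. The others measured, 214057_at and 200796_s_at, differed by -0.03 and -0.06. Probe set 227175_at, below the floor, differed by -0.35.

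BCL2, the founding member of the family, was measured by 2 of its 4 probe sets. Probe set 207004_at was at 6.35 with miR-130b, against 6.30 with empty vector, and 207005_s_at was at 4.89 with miR-130b, against 4.85 with empty vector, right at the floor. These differences of 0.05 and 0.04 are within the technical SD. The others, 203684_s_at and 203685_at, lay below the floor and differed by 0.15 and 0.29. Taken by role, the 4 BH3-only genes spanned -1.26 to 0.33, the 2 pore formers 0.05 to 0.10 and the 3 anti-apoptotic genes -0.22 to 0.05 by their brightest probe sets.

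**Figure D3:**
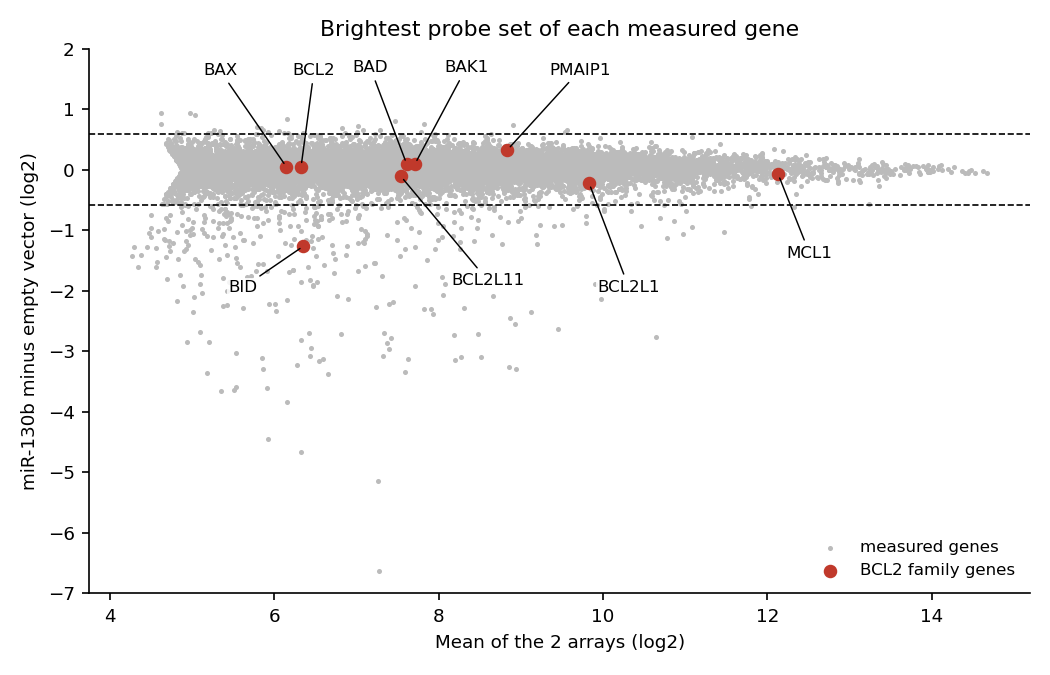
Mean of the 2 arrays (log2, horizontal axis) against the difference miR-130b minus empty vector (log2, vertical axis) for the brightest probe set of each of 13260 measured genes, with the 9 BCL2 family genes in red. BID, at -1.26, lies outside the dense band that holds the other 8, and the dashed lines mark 1.5-fold.

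The pathway around the family was read from 6 lists by the brightest probe set of each gene. The lists share members and together hold 69 distinct measured genes. Of these, 1 was at least 1.5-fold lower and 0 were at least 1.5-fold higher, beside 2.68% and 0.294% of all measured genes. Among further BCL2 family and partner genes, 15 of 19 were measured, with a median of 0.02. BOK, a BAX-like member of the family, was the one at least 1.5-fold lower. Its single measured probe set was at 6.16 with miR-130b, against 6.97 with empty vector, a difference of -0.81. For HRK, a BH3-only gene, the brighter probe set gave 0.32 and the dimmer one -0.29. The brighter probe set of BCL2L15 was at 4.90 with miR-130b, just above the floor, against 4.58 with empty vector, below it. That difference was 0.31, and the dimmer probe set gave 0.60. Both counted as measured only through the miR-130b array, so their shared direction gives no support for a rise. For BECN1, an autophagy protein with a BH3 motif, the values were 0.25 and, in the dimmer one, -0.23.

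The death receptor genes that act before BID showed no member beyond 1.5-fold among 13 measured of 18, with a median of 0.03. Over all measured genes, 2.68% were lower and 0.294% higher by that much, so a count of none is near the common share. CASP8, the caspase that cleaves BID, was at 8.75 in both arrays in its brightest probe set and differed by -0.20 in the other. TNFSF10, the death ligand TRAIL, was at 6.84 with miR-130b, against 6.28 with empty vector, a difference of 0.56 (0.20 in its other probe set). TNFRSF10D, a decoy receptor for TRAIL, was at 7.01 with miR-130b, against 7.49 with empty vector, a difference of -0.48. The TRAIL receptor TNFRSF10A differed by 0.21, and all 3 of its probe sets were higher. The brightest probe set of CASP10 gave -0.22, but another reached 0.70.

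The mitochondrial steps that follow BID were all measured, 13 of 13, and none passed 1.5-fold, with a median of 0.06. That count too is near the share over all measured genes, 2.68% lower and 0.294% higher. MTCH2, the mitochondrial receptor for truncated BID, was at 10.87 with miR-130b, against 10.84 with empty vector. For CYCS, cytochrome c, the brighter probe set gave 0.18 and the dimmer one -0.45. The 2 probe sets of APAF1, the scaffold of the apoptosome, gave -0.02 and -0.39. ENDOG, a mitochondrial nuclease, differed by -0.22, the protease gene HTRA2 by 0.20 and CASP9, the initiator caspase of the apoptosome, by 0.19 (-0.09 in its lowest probe set).

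Caspases and their nuclease partners, 10 of 14 measured, had a median of -0.08 and none beyond 1.5-fold. For each list in this paragraph, a count of none is near the share over all measured genes, 2.68% lower and 0.294% higher. DFFB, the nuclease that fragments DNA, differed by 0.49, CASP4 by -0.30, CASP2 by -0.27 and CASP6 by -0.24. Of the caspase inhibitors, 5 of 7 were measured and 4 of these stood higher, with a median of 0.16 and none beyond 1.5-fold. The median over all measured genes was also positive, so standing higher does not set this list apart. With the mean of measured probe sets in place of the brightest, the list median was 0.03, beside 0.03 over all measured genes by their brightest. XIAP, which blocks effector caspases directly, was at 10.04 with miR-130b, against 9.77 with empty vector, but the mean over its 5 probe sets was 0.03. BIRC6 differed by 0.23, BIRC5 by 0.16 and BIRC2 by 0.13, with other BIRC5 probe sets down to -0.23. Proteases, kinases and ligases that act on BID or its relatives, 18 of 20 measured, had a median of 0.01 and none beyond 1.5-fold by the brightest probe set. One dimmer probe set of FBXW7, a ubiquitin ligase gene named after its values were seen, was higher by 0.63, and the mean over its 3 probe sets was 0.20. The calpain gene CAPN1 differed by 0.37 (-0.17 in its other probe set), the cathepsin gene CTSD by -0.25, and the DNA damage kinase genes ATR and ATM by 0.19 and 0.18.

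**Figure D4:**
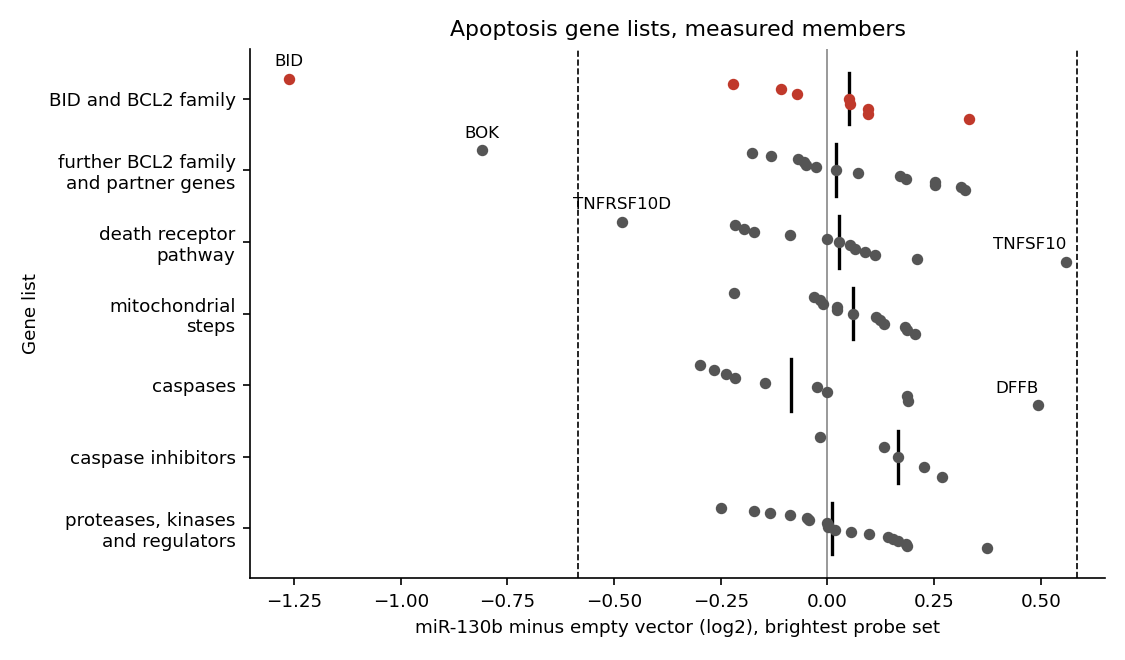
Difference miR-130b minus empty vector (log2, horizontal axis) of each measured gene by its brightest probe set, for the BCL2 family genes (red) and 6 apoptosis lists (grey). Black bars are list medians and dashed lines 1.5-fold; BID at -1.26 and BOK at -0.81 are the points beyond the lower line, and no gene lies beyond the upper one.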

How the data were processed

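The deposited values are on the log2 scale, 1 for each of 54675 probe sets on each array, as the authors processed them. Per the submitters' processing notes the method was RMA, version unstated, which corrects background, normalizes arrays to a shared distribution and summarises probes. The RMA settings were not given in the sources used here. GEO's platform annotation gave 41091 of the 54613 non-control probe sets a single symbol, 1801 several and 11721 none, and those with several named no gene. RefSeq gave the same symbols for the Entrez identifiers of all 9 represented family genes. Each gene was represented by its brightest measured probe set. The number of arrays limits the precision.

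The genes and lists were chosen with earlier results of these data known. Named genes are all family members, up to 4 genes of largest difference per list, CASP8, MTCH2, CYCS, APAF1 and XIAP whatever their values, and the 3 genes nearest to BID. Alternatives changed the floor, the choice of probe set, the suffixes, the centring (median, or loess with a span of 0.3) and the fold. The computation was tested on simulated arrays. Python 3.11.15, numpy 2.4.6, pandas 2.3.3, statsmodels 0.14.6 and matplotlib 3.10.9 were used.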

Additional observations from a re-analysis of the deposited data

How the results depend on the processing

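The BID difference of -1.26 was -1.01 with the mean of its measured probe sets, still at least 1.5-fold lower. Without probe sets whose suffix (_x_at or _s_at) marks possible cross-hybridisation it was -0.86, which is probe set 204493_at alone. That probe set was at 4.30 with miR-130b, below the floor, and counted as measured only through the empty vector array. With the floor at the 75th percentile of all values, 0 of the 6 family genes left were at least 1.5-fold lower, since BID was no longer among them by construction. The count stayed at 1 with no floor, mean of probe sets, no suffixed probe sets, median or loess centring, or the 2-fold rule. Without suffixed probe sets it did so by 204493_at alone. No alternative gave a family gene at least 1.5-fold higher. Without suffixed probe sets, however, PMAIP1 and BAX were no longer counted, since all their probe sets carry _s_at. Over all alternatives the family median ran from -0.01 to 0.10. BCL2L11 ran from -0.39 with the mean of probe sets to 0.12 without suffixed ones, and MCL1 reached 0.28 without suffixed ones. With the mean of probe sets, the median of the caspase inhibitors was 0.03 in place of 0.16 and that of the mitochondrial genes 0.01 in place of 0.06. No paired analysis was possible because there is 1 array per condition. Signal over background limits dim probe sets, 5 of 32 here.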

Other observations

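The BCL2L11 probe sets were compared by the record they were designed from, a grouping chosen after their values were seen. The 2 measured probe sets designed from RefSeq transcripts differed by -0.11 and 0.12, whereas the 3 designed from other records differed by -0.79 to -0.41. BID showed no such split: its RefSeq-derived probe set differed by -0.86 and the other two by -1.26 and -0.91. In BCL2L1 the RefSeq-derived probe set was the lowest of the 4 measured, at -0.49. In PMAIP1 the RefSeq-derived probe set was the higher of the pair, at 0.59 against 0.33. Probe positions within the transcripts were not used here.

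The 3 measured genes whose pair of values lay nearest to that of BID, by distance over the 2 arrays, were ST6GAL1, ARSL and TBC1D9. ST6GAL1, a sialyltransferase gene, was at 5.70 with miR-130b, against 7.01 with empty vector. ARSL was at 5.80 with miR-130b, against 6.97 with empty vector, and TBC1D9 at 5.86 with miR-130b, against 7.03 with empty vector. With 2 arrays this likeness describes a level and a difference only.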
